A study of Homo sapiens with 4 samples.

Results

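The 10 genes described here are those that mark and maintain the epithelial state. CDH1 and EPCAM act at the cell surface, and RAB25 recycles membrane proteins. ESRP1 and ESRP2 are splicing regulators, and GRHL1, GRHL2, GRHL3, OVOL1 and OVOL2 are transcription factors. The rule lists the 10 genes by name and uses no measured value, but they were listed with earlier results of these data known. They are 10 of the 20162 protein-coding genes that GENCODE annotates on hg19. The study profiled H3K27ac, the acetylation of lysine 27 on histone H3 that marks active promoters and enhancers, by ChIP-seq (immunoprecipitation of chromatin followed by sequencing) in 4 cancer cell lines. COLO-205 is a colon cancer line and was grown in RPMI. DU-145 is a prostate cancer line and was grown in Eagle minimal essential medium. OVCAR-3 and SKOV-3 are ovarian cancer lines, grown in RPMI 1640 and McCoy's 5a minimal essential medium. Every medium was supplemented with fetal bovine serum, and the labels give no other treatment. Each line is represented by 1 library without a replicate, so the lines are described side by side and no difference between them was tested. A difference between these libraries can be one of the line, the culture or the library, and these cannot be told apart.

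Epithelial cells are held together by E-cadherin, the product of CDH1, and can lose this adhesion in the epithelial-to-mesenchymal transition, a programme driven by repressors of the ZEB, SNAI and TWIST families. Grainyhead-like (GRHL) and OVO-like (OVOL) factors act on the other side of this switch: they keep epithelial genes on and hold ZEB1 down, as do the microRNAs of the miR-200 family. The ESRP proteins direct the splicing pattern of epithelial cells. Because H3K27ac is found at promoters and enhancers in use, it reports where such genes carry active chromatin, not how much RNA or protein they make.

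The promoter of RAB25 (chr1:156030701-156030980, plus strand) is shown because a peak at this start was listed in OVCAR-3 and in no other line. It is read from the hg19 reference, 5′ to 3′, from 250 bases before the canonical start to 30 bases into the first exon. Capitals mark CACCTG, the E-box letters bound by ZEB and SNAI repressors.
RAB25 promoter: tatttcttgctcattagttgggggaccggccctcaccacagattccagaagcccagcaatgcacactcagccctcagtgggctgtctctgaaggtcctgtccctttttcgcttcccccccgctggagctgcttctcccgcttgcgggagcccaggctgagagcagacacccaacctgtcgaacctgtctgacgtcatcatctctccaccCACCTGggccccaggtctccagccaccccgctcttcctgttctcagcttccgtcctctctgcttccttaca

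In windows of the same size in every gene, from 250 bases before to 50 after the canonical start, CACCTG on either strand occurred in 8 of the 10 members and in 20.4% of 19862 protein-coding promoters. AACCGGTT, the Grainyhead consensus, occurred in 1 member and in 0.156% of all promoters. CCGTTA, the core bound by OVOL factors, occurred in 2 members and in 3.46% of all promoters. With the most upstream start of a protein-coding transcript of each gene in place of the canonical one, CACCTG was found in 5 members and in 21.4% of 19798 promoters, while AACCGGTT (0.152% of promoters) and CCGTTA (3.48%) were found in 1 and 2 members. These are letters in the reference and no binding was measured.

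The 4 peak lists differed in length, with 85576 peaks for COLO-205, 75468 for DU-145, 76093 for OVCAR-3 and 14001 for SKOV-3. The depths worked out from the lists were about 29800000, 36000000, 34200000 and 22400000 ChIP tags in the same order. SKOV-3 thus had both the shortest list and the lowest depth, and the part of depth in the length of the list was not tested. The markers of each labelled tissue were checked by their promoter peaks. Of 8 colon markers, 5 had a peak in COLO-205, among them CDX2 and VIL1 (62.5%, beside 51.1% of all genes), against 1, 1 and 0 in the other lines. Of 7 prostate markers, 4 had one in COLO-205, 3 in DU-145 (42.9%, beside 59.8% of all genes), 3 in OVCAR-3 and 1 in SKOV-3, so these markers did not set DU-145 apart. TMPRSS2 had one in all but SKOV-3 and SLC45A3 in every line, while KLK3 and KLK2, which encode kallikreins of the prostate, had one in COLO-205 only. Of 7 markers of ovary and Müllerian epithelium, 7 had a peak in OVCAR-3 and 3 in SKOV-3 (PAX8, SOX17 and MEIS1). COLO-205 had 3 and DU-145 had 4. The share was 42.9% in SKOV-3, beside 31.6% of all genes. It was 42.9% in COLO-205 and 57.1% in DU-145, beside 51.1% and 59.8% of all genes. In a list of 7, 1 gene is 14.3%, which is more than each of these differences. PAX8 had a peak in every line. In the same order of lines, fibroblast markers with a peak numbered 3, 1, 1 and 2 of 8 and leukocyte markers 1, 1, 0 and 0 of 7, with none in any line at PTPRC, the leukocyte surface marker CD45.

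Nearly all epithelial state genes carried an acetylated promoter in OVCAR-3 and COLO-205, a smaller number did in DU-145, and ESRP2 alone did in SKOV-3. A promoter peak is a peak that overlaps the 1 kb on either side of any annotated transcript start of the gene. In OVCAR-3, 9 of 10 members had one, against 60.5% of all protein-coding genes, and OVOL1 was the exception. In COLO-205, 8 of 10 had one, against 51.1% of all genes, with RAB25 and GRHL3 missing. In DU-145, 5 of 10 had one, against 59.8%, so the share of the members there was not above that of all genes. In SKOV-3, 1 of 10 had one, against 31.6%.

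Both ovarian lines differed at most members. A peak in OVCAR-3 without one in SKOV-3 was found for 8 of 10 members and for 30.3% of all genes. Among the genes with a promoter peak in all of the other 3 lines, 66% also had one in SKOV-3, and of the 5 members in this class (CDH1, EPCAM, ESRP1, ESRP2 and GRHL1) ESRP2 did. When every list was reduced to its 14001 most significant peaks, 7 of 10 members had a promoter peak in COLO-205 (21.8% of all genes), 7 did in OVCAR-3 (37.9%), 4 did in DU-145 (37.8%) and 1 did in SKOV-3 (31.6%). With these lists 2 members, EPCAM and ESRP2, had a promoter peak in all of the other 3 lines, and 1 of them, ESRP2, had one in SKOV-3, beside 85.8% of 2927 genes. When the pileups were scaled down to the depth of SKOV-3, every one of the 22 strongest promoter peaks of the members in the other lines still reached the lowest significance of the SKOV-3 list. At that depth 67.1% of the genes with peaks in all of the other 3 lines had one in SKOV-3, and again 1 of 5 members. With only the canonical start of each gene counted, 8 members had a peak in COLO-205 (44.5% of all genes), 8 did in OVCAR-3 (56.5%), 5 did in DU-145 (55.9%) and 0 did in SKOV-3 (29%).

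**Figure D1:**
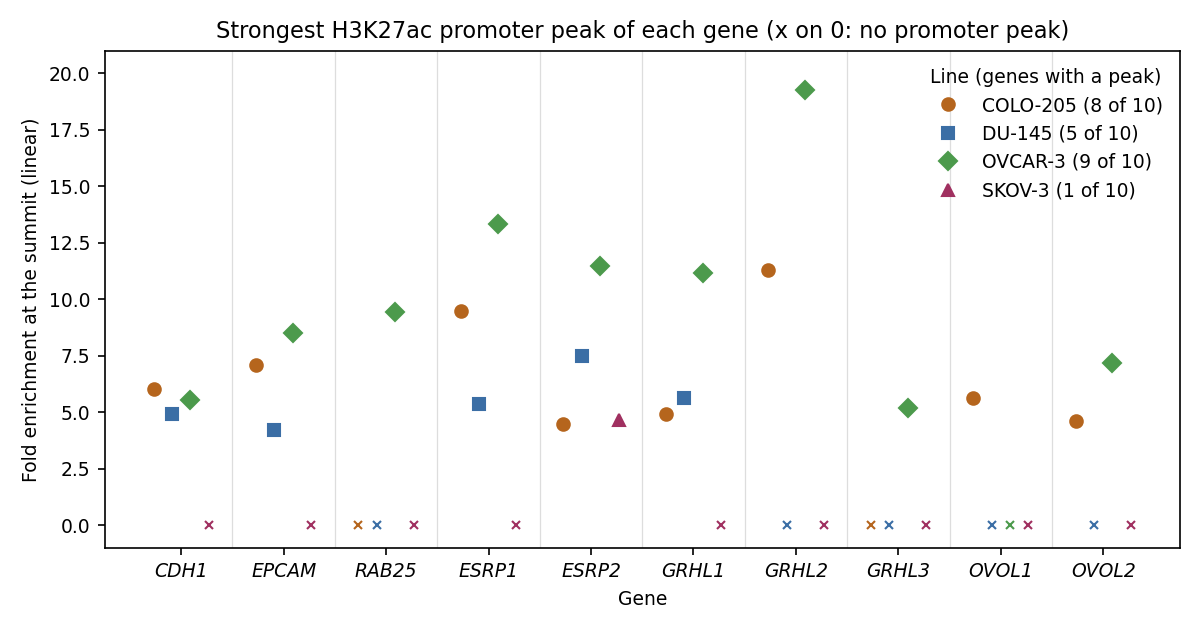
Fold enrichment over local background at the summit of the strongest promoter peak (vertical axis, linear) of each gene (horizontal axis) in 4 lines, 1 library each. A cross on 0 means that the list holds no promoter peak. Of the 7 genes with a peak in OVCAR-3 and in another line, OVCAR-3 has the highest value for 6, up to 19.3 at GRHL2, and SKOV-3 has a value at ESRP2 only.

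CDH1 encodes E-cadherin, the adhesion molecule of the adherens junction. The fold enrichment at the summit of its strongest promoter peak was 6.03 in COLO-205, 4.94 in DU-145 and 5.53 in OVCAR-3, and no promoter peak was listed in SKOV-3. The tag pileups at these summits were 62, 69 and 53 tags. In RPM, the pileup for each 1000000 ChIP tags of a library, these are 2.08 (95% exact Poisson interval 1.60 to 2.67), 1.92 (1.49 to 2.43) and 1.55 (1.16 to 2.03). The 3 intervals overlap, so at this depth the level at the CDH1 promoter could not be told apart between COLO-205, DU-145 and OVCAR-3. Such intervals cover counting error only, not the variation between cultures or libraries. In SKOV-3 the nearest peak to the canonical start was 29736 bp away.

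EPCAM encodes an epithelial surface glycoprotein used to capture carcinoma cells. Its promoter summit had a fold enrichment of 7.07 in COLO-205, 4.21 in DU-145 and 8.49 in OVCAR-3. In RPM the pileup was 2.85 (2.28 to 3.53), 1.92 (1.49 to 2.43) and 3.13 (2.56 to 3.78), and the intervals of DU-145 and OVCAR-3 do not overlap. SKOV-3 had no peak within 1 kb of any EPCAM start, and its nearest one lay 13750 bp from the canonical start.

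RAB25 encodes a small GTPase that recycles membrane proteins in epithelial cells. It had a promoter peak in OVCAR-3 and in no other line, a pattern shared with GRHL3 and with 4.63% of all genes. Its strongest OVCAR-3 peak covered the start, with a fold enrichment of 9.46, a pileup of 80 tags or 2.34 RPM (1.85 to 2.91), and 4 OVCAR-3 peaks overlapped the windows around its starts. In the other lines the nearest peaks to the canonical start lay 6912 bp (COLO-205), 5379 bp (DU-145) and 6915 bp (SKOV-3) away. RAB25 thus had no promoter peak in DU-145 although 20.1% of its surroundings was under peaks there, as described for the distal peaks.

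ESRP1 and ESRP2 encode the epithelial splicing regulators. At ESRP1 the strongest promoter peak had a fold enrichment of 9.48 in COLO-205 and 13.3 in OVCAR-3. The pileups were 91 and 157 tags, or 3.05 (2.46 to 3.75) and 4.59 (3.90 to 5.37) RPM, and the intervals do not overlap. Within each line the fold enrichment was above 98.3% (COLO-205) and 86.0% (OVCAR-3) of the strongest promoter peaks of all genes with one. DU-145 was weaker at ESRP1 than either: the peak at the canonical start had a fold enrichment of 3.11 with 43 tags (1.19 RPM). A second DU-145 peak with 23 tags and a fold enrichment of 5.38 lay at an internal start 24.5 kb downstream. SKOV-3 had no promoter peak at ESRP1 and its nearest peak was 78707 bp from the canonical start.

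ESRP2 was the member with a promoter peak in all 4 lines, like 5072 of the protein-coding genes (25.2%), but its peak at the canonical start was not listed in every line. At the canonical start the strongest peak had 133 tags (3.89 RPM) in OVCAR-3, 112 (3.11 RPM) in DU-145 and 56 (1.88 RPM) in COLO-205. SKOV-3 had no peak overlapping the 1 kb around this start, and its nearest one lay 1142 bp away. At the most upstream start, 1975 bp before the canonical one, all 4 lines had a peak. The pileup there was 109 tags or 3.03 RPM (2.49 to 3.65) in DU-145, 70 tags or 2.35 RPM (1.83 to 2.97) in COLO-205, 79 tags or 2.31 RPM (1.83 to 2.88) in OVCAR-3 and 48 tags or 2.14 RPM (1.58 to 2.84) in SKOV-3. Every pair of these intervals overlaps. The fold enrichments at this start lay between 4.47 (COLO-205) and 5.48 (DU-145), with 4.68 in SKOV-3. SKOV-3 also had a second, weaker peak between the starts (39 tags, fold enrichment 4.26), which peaks in COLO-205, DU-145 and OVCAR-3 overlapped. This is the peak that lay 1142 bp from the canonical start, just outside the 1 kb window, so its absence from the canonical count rests on the width of that window. In DU-145 the peak that overlapped it was the wide one, of 2501 bp, counted at the canonical start. GENCODE also places an unnamed lncRNA gene on the same strand between these starts, and H3K27ac does not show which transcript is made.

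**Figure D2:**
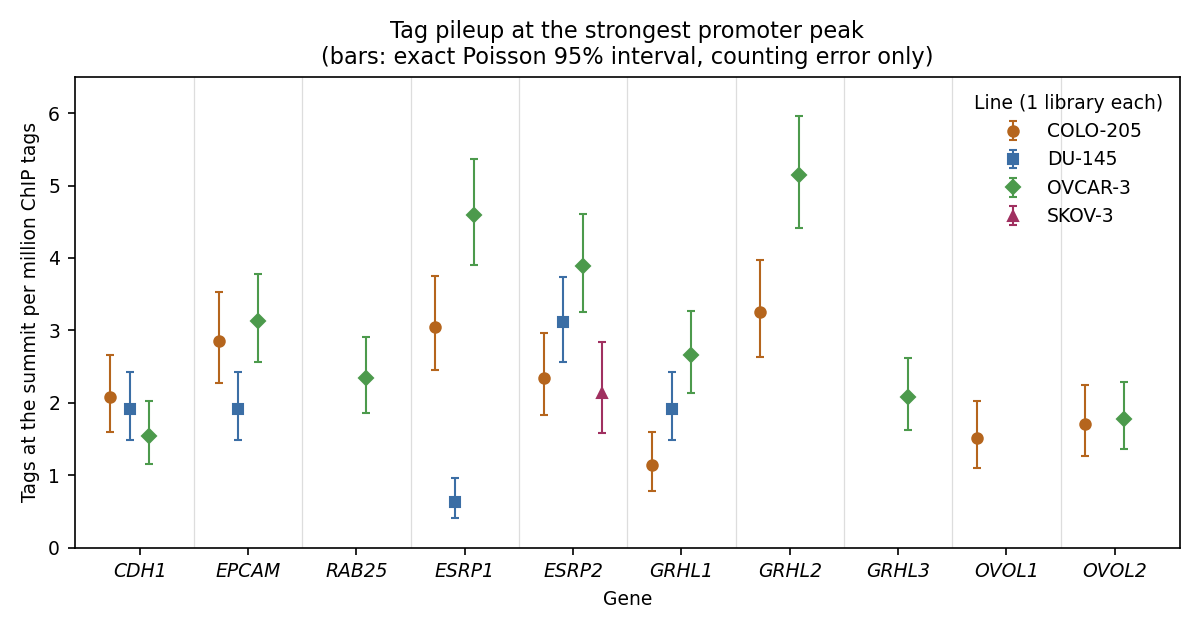
Tags at the summit of the strongest promoter peak in RPM, tags for each 1000000 ChIP tags of the library (vertical axis) for each gene (horizontal axis), with bars for the exact Poisson 95% interval of the pileup. The intervals overlap at CDH1 and OVOL2, while at ESRP1 and GRHL2 that of OVCAR-3 lies above that of COLO-205. Over all genes with a promoter peak the median was 1.41 RPM in COLO-205 and 2.46 RPM in OVCAR-3, so OVCAR-3 was also higher over all genes.

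The Grainyhead-like factors differed among themselves. GRHL1 had a promoter peak in COLO-205 (fold enrichment 4.91, 34 tags), DU-145 (5.63, 69 tags) and OVCAR-3 (11.2, 91 tags). In RPM the pileup was 1.14 (0.79 to 1.59) in COLO-205, 1.92 (1.49 to 2.43) in DU-145 and 2.66 (2.14 to 3.27) in OVCAR-3, and the intervals of COLO-205 and OVCAR-3 do not overlap. SKOV-3 had no peak closer than 91891 bp to the start of GRHL1.

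GRHL2, a direct activator of CDH1 in epithelial cells, had the strongest promoter peak of all members, and it was listed in COLO-205 and OVCAR-3 alone. The fold enrichment was 11.3 in COLO-205 and 19.3 in OVCAR-3, above 99.3% and 96.6% of the strongest promoter peaks of all genes with one in those lines. The pileups were 97 and 176 tags, or 3.26 (2.64 to 3.97) and 5.15 (4.41 to 5.97) RPM, with intervals that do not overlap. Both summits lay 1213 and 1255 bp downstream of the canonical start, and a second, lower peak covered the start itself in both lines. In DU-145 the nearest peak was 70389 bp from the canonical start and in SKOV-3 it was 213126 bp away. GRHL2 and OVOL2 shared this presence in COLO-205 and OVCAR-3 with 2.77% of all genes.

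GRHL3, a factor of the skin barrier, had a promoter peak in OVCAR-3 only. This peak had a fold enrichment of 5.21 and 71 tags or 2.08 RPM (1.62 to 2.62), and lay near an internal start, with its summit 2750 bp downstream of the canonical one. No line had a peak within 1 kb of the canonical start of GRHL3.

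The OVOL factors, zinc finger repressors of mesenchymal genes, had a promoter peak in 1 line (OVOL1) and in 2 lines (OVOL2). OVOL1 had a promoter peak in COLO-205 alone, as did 6.16% of all genes, with a fold enrichment of 5.63 and 45 tags or 1.51 RPM (1.10 to 2.02). The peak was 1572 bp wide and its summit lay 1030 bp downstream of the start, just outside the window. OVOL2 had a fold enrichment of 4.60 with 51 tags in COLO-205 and of 7.16 with 61 tags in OVCAR-3. In RPM these are 1.71 (1.27 to 2.25) and 1.78 (1.36 to 2.29), and the intervals overlap. In DU-145 and SKOV-3 no peak lay closer than 79921 and 79972 bp to the canonical start of OVOL2.

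Across the members with a promoter peak, the median fold enrichment was 5.83 in COLO-205 (8 genes), 5.38 in DU-145 (5 genes) and 9.46 in OVCAR-3 (9 genes). The medians over all genes with a promoter peak in the same lines were 4.45, 4.65 and 7.39. The value of ESRP2 in SKOV-3, 4.68, stood beside a median of 5.25 over all genes there. These medians are over genes that passed the peak threshold and leave out the members without a peak. In RPM the median pileup over all genes with a promoter peak was 1.41 in COLO-205, 1.86 in DU-145 and 2.46 in OVCAR-3. RPM thus differed between these libraries over all genes too.

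Outside the promoters, the members had 87 distal peaks in OVCAR-3, 83 in DU-145, 67 in COLO-205 but 7 in SKOV-3. A distal peak is one within 50 kb of the gene body that overlaps no start window of the member and none of a protein-coding transcript of another gene. At least 1 distal peak was found for 10 of 10 members in OVCAR-3 (60.7% of all genes), 9 in COLO-205 (74.2%), 9 in DU-145 (64.8%) and 4 in SKOV-3 (22.9%). In the order COLO-205, DU-145, OVCAR-3, SKOV-3, the median number of distal peaks per member was 5.5, 8, 5.5 and 0, against 2, 2, 1 and 0 over all genes. The share of the gene body and its 50 kb flanks under peaks had a median of 2.31%, 3.44%, 2.38% and 0.285% over the members and of 0.935%, 1.64%, 1.24% and 0.185% over all genes. In all, 37866, 69737, 73604 and 7000 bases around the members were under peaks of any kind, those at starts of other genes included. The window of RAB25 alone held 21942 of these bases in DU-145 and 31932 in OVCAR-3. The distal counts rest on the lengths of the lists: with 14001 peaks in every list the members had 7 distal peaks in each of OVCAR-3, DU-145 and SKOV-3 and 3 in COLO-205. The bases under peaks of any kind were then 39117 in OVCAR-3, 31057 in DU-145 and 12709 in COLO-205, still above the 7000 of SKOV-3. With pileups scaled to the depth of SKOV-3 instead, an alternative chosen after seeing the data, 79, 58 and 63 distal peaks stayed in OVCAR-3, DU-145 and COLO-205 against 7 in SKOV-3. The full lists held 58191, 57368, 71961 and 6731 distal peaks in this order of lines, so SKOV-3 was far lower over the whole lists as well. No distal counts over all genes are given here for these alternatives. In the full list of DU-145, the 5 members without a promoter peak had 17 (RAB25), 3 (OVOL1), 2 (GRHL2), 2 (GRHL3) and 0 (OVOL2) distal peaks. The members with a promoter peak there had between 7 (ESRP1) and 24 (CDH1).

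**Figure D3:**
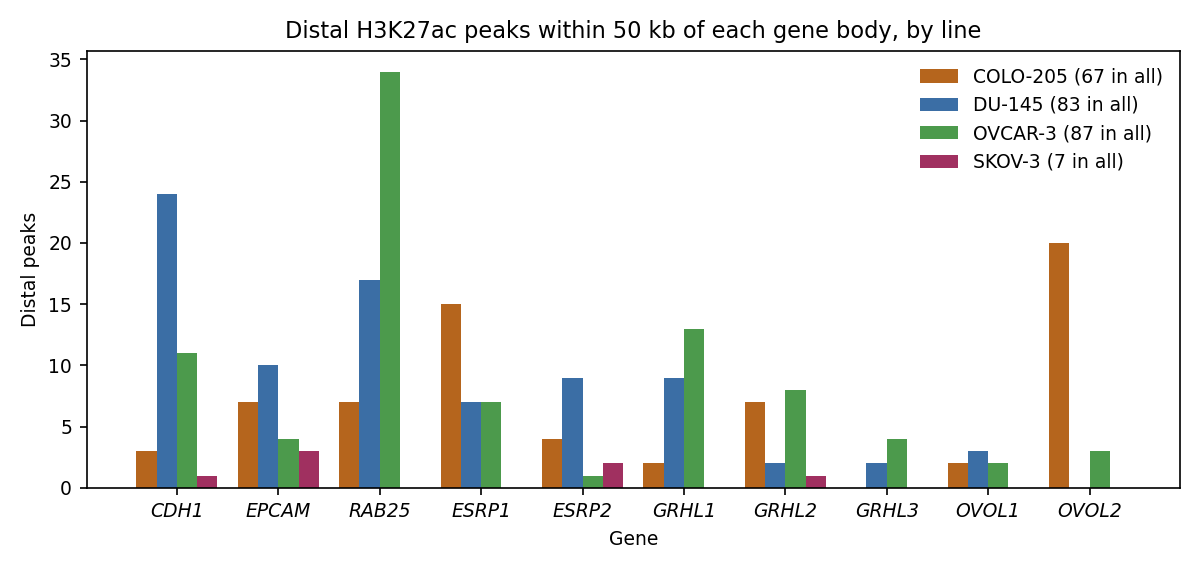
Number of distal peaks within 50 kb of the body of each gene (horizontal axis) in each line, 1 library each. The bars of DU-145 are highest at CDH1 (24), those of OVCAR-3 at RAB25 (34) and those of COLO-205 at OVOL2 (20).

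The distal peaks were spread unevenly over genes and lines. CDH1 had 24 distal peaks in DU-145, 11 in OVCAR-3, 3 in COLO-205 and 1 in SKOV-3, although its promoter pileup could not be told apart between the first 3 of these lines. OVOL2 had 20 in COLO-205, 3 in OVCAR-3 and 0 in DU-145 and SKOV-3. RAB25 had 34 in OVCAR-3, 17 in DU-145, 7 in COLO-205 but 0 in SKOV-3, and 29.2% of its window was under peaks in OVCAR-3. Its window also holds LMNA and UBQLN4, in whose introns many of these peaks lay, so they cannot be assigned to RAB25. ESRP1 had 15 in COLO-205 and 7 each in DU-145 and OVCAR-3, and GRHL1 had 13 in OVCAR-3, 9 in DU-145 and 2 in COLO-205. EPCAM had 10 in DU-145, 7 in COLO-205, 4 in OVCAR-3 and 3 in SKOV-3. ESRP2, GRHL2, GRHL3 and OVOL1 had 9 or fewer in every line.

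Merged over the lines, the distal peaks made 200 separate sites. Of these, 166 were found in 1 line, 30 in 2, 4 in 3 and 0 in all 4. Most lay in introns (151), with 38 between genes and 11 in exons. The pair that shared most was DU-145 and OVCAR-3, with 20 sites found in these lines alone, against 5 for COLO-205 and OVCAR-3 and 5 for COLO-205 and DU-145. Of these 20 sites, 9 lay in the window of RAB25 and 6 in that of CDH1. DU-145 with OVCAR-3 was also the most frequent pair for promoter peaks over all genes (9.98%, against 2.77% for COLO-205 with OVCAR-3 and 2.62% for COLO-205 with DU-145). Of the member distal peaks of COLO-205, 19.4% overlapped a peak of another line, and the shares were 34.9% in DU-145, 39.1% in OVCAR-3 and 57.1% of the 7 in SKOV-3. Over all distal peaks of the same lists the shares were 16.1%, 25.9%, 28.9% and 66.6%.

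The 4 sites found in 3 lines included SKOV-3 each time. The first lay 29.8 kb upstream of CDH1, in an intron of CDH3, the neighbouring P-cadherin gene. Its pileup was 60 tags or 1.67 RPM (1.27 to 2.15) in DU-145, 40 tags or 1.17 RPM (0.836 to 1.59) in OVCAR-3 and 29 tags or 1.29 RPM (0.867 to 1.86) in SKOV-3, with overlapping intervals. A pair of sites lay 34.5 and 13.8 kb upstream of the canonical EPCAM start, both also found in DU-145 and OVCAR-3. At the nearer of these the fold enrichment was 8.59 in OVCAR-3, 6.96 in SKOV-3 and 5.82 in DU-145, with pileups of 1.08 (0.762 to 1.49), 0.938 (0.580 to 1.43) and 0.861 (0.585 to 1.22) RPM. These intervals overlap, and SKOV-3 thus had a listed peak at this intronic site and none listed at the EPCAM promoter. The last lay 21.8 kb upstream of the canonical ESRP2 start in an intron of PLA2G15, with a fold enrichment of 4.38 in COLO-205, 9.22 in OVCAR-3 and 5.25 in SKOV-3.

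Among the sites of DU-145 and OVCAR-3, 2 that were chosen after their values were seen, for their enrichment, had fold enrichments above 6 in both lines. The first lay 18.6 kb downstream of the CDH1 start, in an intron of CDH1. Its fold enrichment was 7.32 with 52 tags in DU-145 and 9.44 with 55 tags in OVCAR-3, beside 4.94 and 5.53 at the CDH1 promoter. The tags at the promoter summit were 69 and 53, so in DU-145 the site had the higher fold enrichment but the lower pileup. The other lay 31.0 kb downstream of the OVOL1 start, between genes (chr11:65585418-65585618), with a fold enrichment of 6.61 with 67 tags in DU-145 and 8.11 with 66 tags in OVCAR-3. OVOL1 had no promoter peak in these lines. The sequence of this second site is shown, 100 bases on either side of the OVCAR-3 summit on the plus strand of hg19, with CACCTG in capitals.
OVOL1 distal site: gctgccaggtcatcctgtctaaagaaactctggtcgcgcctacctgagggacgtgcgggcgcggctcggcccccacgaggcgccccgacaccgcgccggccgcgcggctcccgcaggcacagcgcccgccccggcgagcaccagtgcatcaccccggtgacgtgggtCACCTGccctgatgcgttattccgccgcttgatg

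The sequences of such sites differ in how often they occur in the genome, which bears on how surely short reads are placed. Of the 10 adjoining 20-base words of the CDH1 site, 10 occurred more than once in hg19, the most frequent 57612 times. Of the 10 words of the EPCAM site 13.8 kb upstream, 8 occurred more than once, with at most 402 copies. All 10 words of the OVOL1 site occurred once. The part of repeated sequence in the CDH1 and EPCAM peaks was not tested.

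**Figure D4:**
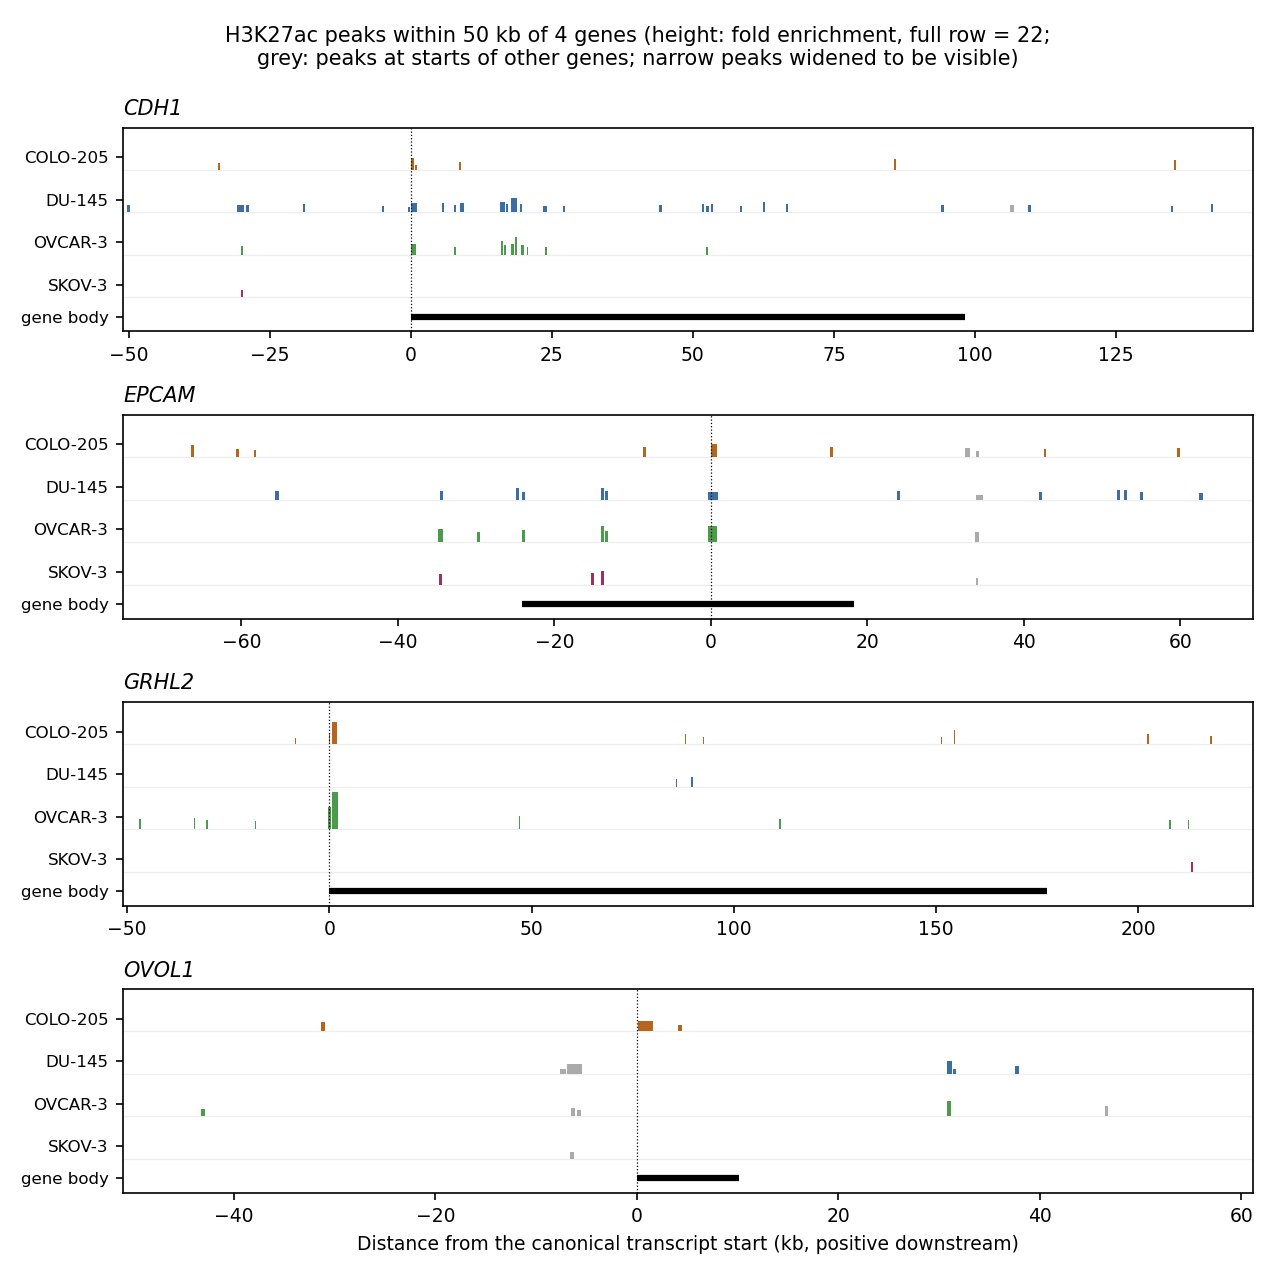
Peaks within 50 kb of CDH1, EPCAM, GRHL2 and OVOL1 by distance from the canonical transcript start (kb, positive downstream), with the height giving fold enrichment and a full row standing for 22. Grey bars are peaks at starts of other genes, and the black bar is the gene body. SKOV-3 has no bar at any of the 4 starts, and DU-145 and OVCAR-3 share bars 18.6 kb into CDH1 and 31.0 kb downstream of OVOL1.

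The other genes of epithelial junctions were acetylated at their promoters in most cases in COLO-205, DU-145 and OVCAR-3, and some were in SKOV-3. Of 12 adherens junction and desmosome genes, 9 had a promoter peak in COLO-205, 12 did in each of DU-145 and OVCAR-3, and 4 did in SKOV-3 (33.3%, beside 31.6% of all genes). The 4 with a peak in every line were CTNNA1, DSP, PKP2 and PKP3. CTNNB1, which encodes β-catenin, JUP, DSC2, EVPL and CDH3 lacked one in SKOV-3 only, and CTNND1, DSG2 and PPL had one in DU-145 and OVCAR-3. Of 17 tight junction and epithelial surface genes, the counts were 14, 15, 17 and 7, and the 7 in SKOV-3 are 41.2%, above the share of all genes. CLDN4, CLDN7, OCLN, MARVELD2, MARVELD3 and ST14 lacked a peak in SKOV-3 only, F11R and AP1M2 had one in DU-145 and OVCAR-3, PRSS8 in COLO-205 and OVCAR-3, and CLDN3 in OVCAR-3 alone. Of 8 other epithelial transcription factors the counts were 5, 6, 7 and 2 (25% in SKOV-3). KLF5 and TFAP2A had a peak in every line, ELF3, TFCP2L1 and TFAP2C in all but SKOV-3, EHF in OVCAR-3 alone and TP63 in none.

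The genes on the other side of the switch were counted in the same way. Of 6 repressors of the epithelial state, 2 had a promoter peak in each of COLO-205 and OVCAR-3, and 3 did in each of DU-145 and SKOV-3. The count of 3, or 50%, is below the share of all genes in DU-145 (59.8%) and above that in SKOV-3 (31.6%). ZEB1, the main repressor of CDH1, had one in all 4 lines, with a fold enrichment of 4.79, 5.97, 3.87 and 10.7, highest in SKOV-3. TWIST1 had one in SKOV-3 alone (4.12), TWIST2 in DU-145 (6.83) and SKOV-3 (6.26), and SNAI1 in COLO-205, DU-145 and OVCAR-3. ZEB2 and SNAI2 had none. Of 6 mesenchymal genes, 1 had a peak in each of COLO-205, DU-145 and OVCAR-3 (16.7%, beside 51.1%, 59.8% and 60.5% of all genes). In SKOV-3, 3 did (50%, beside 31.6%). VIM, which encodes vimentin, had one in DU-145 (7.01) and SKOV-3 (9.06), FN1 in OVCAR-3 (5.63) and SKOV-3 (5.45), and SPARC in COLO-205 (2.82) and SKOV-3 (6.22), while CDH2, MMP2 and CDH11 had none in any line.

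**Figure D5:**
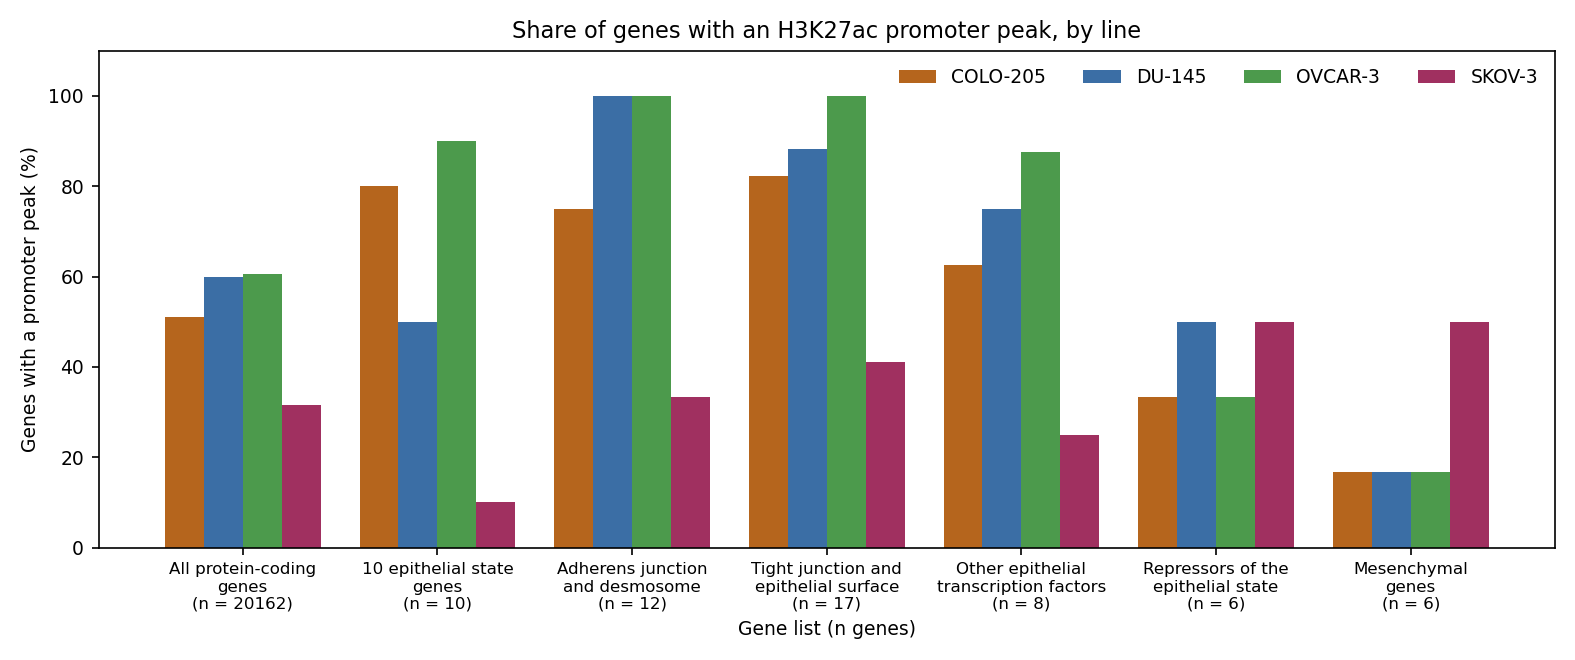
Percent of genes with an H3K27ac promoter peak (vertical axis, from 0) in all protein-coding genes and in 6 gene lists (horizontal axis, with the number of genes), by line. The members stand at 80, 50, 90 and 10% beside 51.1, 59.8, 60.5 and 31.6% of all genes, and SKOV-3 has the highest bar among the mesenchymal genes and ties with DU-145 among the repressors.

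The miR-200 family holds ZEB mRNAs down in epithelial cells and is encoded in 2 clusters. Some of its mature sequences are shown because the seed, bases 2 to 8 in capitals, sets which mRNAs are bound. They are the 3p arms and miR-429, from RefSeq (GRCh38.p14), and fall into 2 seed groups, AAUACUG and AACACUG, both of which occur in each cluster.
miR-200b-3p: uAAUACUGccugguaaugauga
miR-200c-3p: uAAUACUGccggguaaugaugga
miR-429: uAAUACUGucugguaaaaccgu
miR-200a-3p: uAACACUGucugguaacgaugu
miR-141-3p: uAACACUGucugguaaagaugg

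Peaks within 1 kb of these hairpins were listed for 5 of 5 in COLO-205, 4 in OVCAR-3, 2 in DU-145 and 0 in SKOV-3. Of all 3043 annotated miRNA hairpins, 12.7, 12.4, 11.8 and 4.17% had one in the same order of lines. The family's counts rest on 3 peaks in COLO-205, 2 in OVCAR-3 and 1 in DU-145, since neighbouring hairpins share them. GRHL2 and OVOL2 had promoter peaks in COLO-205 and OVCAR-3 and none in DU-145 or SKOV-3. The neighbouring MIR200C and MIR141 shared 1 peak, with a fold enrichment of 7.48 in COLO-205, 4.72 in DU-145 and 15.0 in OVCAR-3. MIR200A and MIR200B also shared 1, with 7.35 in COLO-205 and 3.67 in OVCAR-3, and MIR429 had one in COLO-205 (4.32). The start of the hairpin is not that of the primary transcript, so these are peaks near the hairpins.

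By their presence or absence in the 4 lines, the listed genes most like CDH1, EPCAM, ESRP1 and GRHL1 (COLO-205, DU-145 and OVCAR-3 but not SKOV-3, 13.0% of all genes) were CTNNB1, JUP, DSC2, EVPL, CDH3, CLDN4, CLDN7, OCLN, MARVELD2, MARVELD3, ST14, ELF3, TFCP2L1, TFAP2C, SNAI1, MIR200C and MIR141, and among the tissue markers LGALS4, TMPRSS2 and COL1A1. Those like RAB25 and GRHL3 were CLDN3, EHF and the marker HOXB13. Those like GRHL2 and OVOL2 were PRSS8, MIR200A, MIR200B and the markers WT1 and EMX2. OVOL1 shared its pattern with MIR429 and the markers CDX2, VIL1, HNF4A, GPA33, KLK3, KLK2 and PDGFRB. ESRP2 shared its own with CTNNA1, DSP, PKP2, PKP3, TJP1, LSR, SPINT1, SPINT2, MAL2, KLF5, TFAP2A, ZEB1 and the markers SLC45A3 and PAX8. This likeness is over 4 libraries with a yes or no in each.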

How the data were processed

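H3K27ac ChIP-seq of 4 cell lines was used, 1 library each. The authors mapped reads to hg19 with Bowtie2 2.1.0 and called peaks per library with MACS2 2.1.0.20150603 against input at q < 0.001. The deposited lists give a score (10 times the −log10 q, as a whole number), the fold enrichment at the summit (a ratio to local background), and −log10 p and −log10 q, all made by the authors within one library. The methods state that peaks under 350 bp apart were merged, which the deposited lists do not show.

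Peaks were joined to GENCODE release 44 mapped to GRCh37, with an overlap of at least 1 base. Where a gene had several promoter peaks, that with the highest −log10 q was taken. The tag pileup at each summit was worked out from fold and p, and came out whole (tolerance 0.001 on −log10 p) for 100% of peaks in every list. The tags per library follow from the lowest background in a list, a genome of 2.7e+09 positions and the fragment length, for which the narrowest peak stands (192 to 248 bases by library). Tags are extended to that length, which also moves RPM between libraries. The recovery was tested on simulated data. Intervals are exact Poisson at 95%. The work was done in Python 3.11.15 with pandas 2.3.3, scipy 1.17.1, numpy 2.4.6 and matplotlib 3.10.9.

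All 10 members are named. Of the other lists the genes that differ between lines, every gene of lists of 6 or fewer, and those with a member's pattern are named. The rule for the members uses no measured value, but members and lists were chosen with earlier results of these data known. No test between lines was made. Some listed genes and sequences are counted but not reported here by name.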

Additional observations from a re-analysis of the deposited data

How the results depend on the processing

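The number of members with a promoter peak stayed within 1.5 times its value in every line under each alternative (minimum −log10 q of 5 or 10, the same number of peaks in every list, merging of peaks under 350 bp apart, windows of 500 bp or 2 kb, protein-coding transcripts only, summits inside the window, scaling to the depth of SKOV-3), except that SKOV-3 had 0 with the canonical start alone. Scaling and the canonical start alone were chosen after seeing the data. Single members did change: OVOL1 was lost in COLO-205 when the summit had to lie in the window, RAB25 was gained in DU-145 with 2 kb, ESRP1 was lost in DU-145 at a −log10 q of at least 10, GRHL3 in OVCAR-3 and ESRP2 in SKOV-3 with the canonical start alone, and with equal lists CDH1 and GRHL3 were lost in OVCAR-3, GRHL1 in COLO-205 and ESRP1 in DU-145.

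The distal counts and covered bases depended on distance and threshold. Lines are in the order OVCAR-3, DU-145, COLO-205, SKOV-3 where all are given. With a −log10 q of at least 10 the distal peaks were 39, 26, 15 and 2, and the bases under peaks were 42974 in DU-145, 19045 in COLO-205 but 4574 in SKOV-3. With 10 kb they were 38, 34, 33 and 2 peaks and 35000, 29576, 23160 and 2768 bases. With 100 kb they were 146, 152, 111 and 12 peaks and 118138, 144274, 57964 and 12431 bases. With equal lists they were 7 peaks in OVCAR-3, 7 in DU-145 and 3 in COLO-205, no more than the 7 of SKOV-3, and 39117, 31057 and 12709 bases. Counting peaks at neighbouring promoters raised SKOV-3 to 18. Of 100 alternative values, 69 stayed within 1.5 times and 31 did not. No paired analysis was possible because no line has more than 1 library. A missing peak means only that the caller's threshold was not passed, and the depth of the input was not used here.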
